A study of Mus musculus with 12 samples.

Results

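PIAS and SUMO pathway genes were followed in cerebellar RNA of mice with a mutated U2 snRNA gene. The 8 genes are Sumo2 and Sumo3, Pias1, Pias2, Pias3 and Pias4, and Senp1 and Senp2. A row was taken when the platform annotation gave it exactly 1 gene symbol and that symbol was one of the 8. This left 6 gene-level rows of 23332 and 124 probe sets of 229581. Of the 8 genes, 6 had a gene-level row and 7 had probe sets. Sumo2 was measured at exon level only, and Sumo3 had no row with a single symbol. The genes were selected with this same comparison in view, so their values are given as a description, without a p-value.

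The arrays were hybridised with total cerebellar RNA from 3 NMF291-/- mice and 3 wild-type mice, all female and at postnatal day 30. The NMF291-/- mice are homozygous for a 5-nucleotide deletion in Rnu2-8, a gene for U2 snRNA, and the wild-type mice were matched to them for age and sex. U2 snRNA is the part of the spliceosome that pairs with the branch site of introns. Each mouse has 1 Affymetrix Mouse Exon 1.0 ST array, deposited as a gene-level and as an exon-level summary, so both levels describe the same 3 mice per genotype.

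SUMO is a small protein that is joined to lysines of other proteins through an activating enzyme, a conjugating enzyme and, for many substrates, a ligase. PIAS proteins are SUMO ligases that were first described as inhibitors of activated STAT transcription factors. SENP proteases mature the SUMO precursor and remove SUMO from its substrates. In neurons, SUMO is attached to transcription factors and to synaptic proteins such as kainate receptors.

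The median of all gene-level rows (log2) was 8.05 to 8.09 in NMF291-/- mice and 8.00 to 8.03 in wild type. Over all gene-level rows, limma called 1342 at an adjusted p under 0.05, which is 5.75%. Of these, 920 (3.94%) were higher and 422 (1.81%) lower in NMF291-/- mice. After quantile normalization the split was 680 higher and 595 lower, and after median centring it was 529 higher and 600 lower. Markers of cerebellar neurons were high in both genotypes, with a mean of 11.92 to 11.99 in NMF291-/- and 12.14 to 12.18 in wild type for 8 granule neuron genes. In bulk tissue, fewer cells of a type and less RNA per cell cannot be told apart. With 3 mice of each genotype, precision is set by the number of arrays.

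At gene level, Pias4 stood highest above wild type among the 6 genes measured, Senp1 and Pias3 were higher by smaller amounts, Pias1 was slightly lower, and Pias2 and Senp2 overlapped between genotypes. Of the 6 rows, 2 passed the threshold, both of them higher in NMF291-/- mice, beside 6.49% of all gene-level rows with 1 symbol and 4.18% of them called higher. The NMF291-/- arrays lay wholly above the wild-type arrays for 3 of the 6 genes, beside 19.8% of such rows. They lay wholly below for 1 gene, beside 13.3%. The median difference of the 6 genes was 0.10, against 0.01 for all rows with 1 symbol. Because the genes were chosen from this comparison, these shares are not read further.

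**Figure D1:**
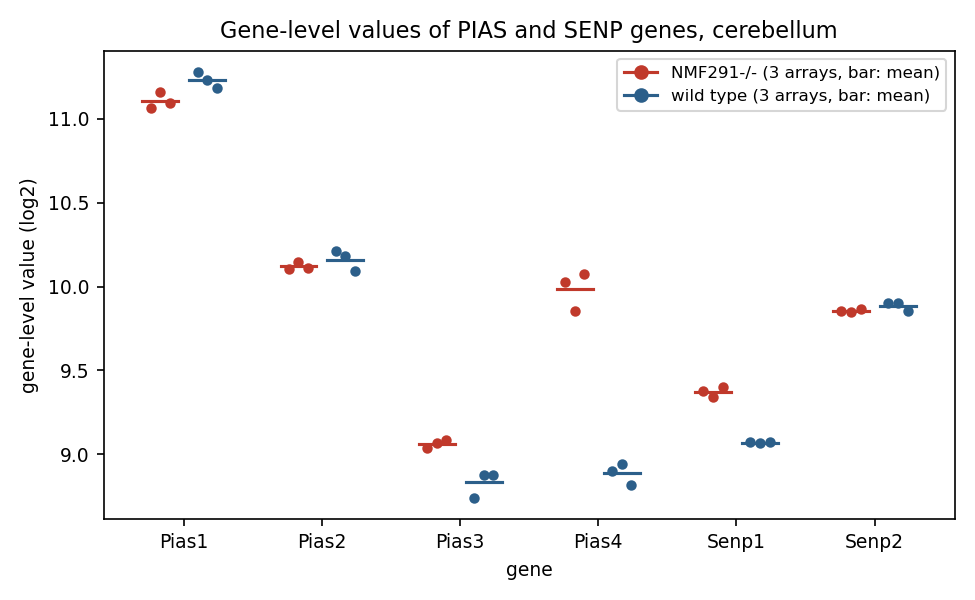
Gene-level values (log2) of the 6 PIAS and SENP genes with a row of their own, with 3 NMF291-/- arrays in red left of 3 wild-type arrays in blue and a bar at each mean. Pias4 lies at 9.85 to 10.07 in NMF291-/- and at 8.82 to 8.94 in wild type, while Pias2 and Senp2 overlap.

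Among the SUMO modifiers, Sumo2 encodes the form of SUMO that, with its close relative Sumo3, builds SUMO chains. Its 5 probe sets differed by -0.16 to 0.07 on the log2 scale, and the genotypes overlapped in all 5. The probe set with the highest difference, 5166072, read 7.77, 8.04 and 7.89 in NMF291-/- mice, against 8.07, 7.90 and 7.50 in wild type. The one with the lowest, 4706028, read 6.53, 5.97 and 6.01 in NMF291-/- mice, against 6.31, 6.29 and 6.39 in wild type.

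Sumo3 appeared only in a gene-level row annotated to both Ube2g2 and Sumo3, which is not counted among the members. Ube2g2 encodes a ubiquitin-conjugating enzyme. That shared row read 10.05, 9.92 and 10.10 in NMF291-/- mice, against 9.48, 9.40 and 9.37 in wild type, a difference of 0.60 ± 0.06 (SE, n = 3 mice each). Probe sets annotated to Ube2g2 alone also lay above wild type, so the shared row gives no separate value for Sumo3. A second shared row, annotated to Sumo2 and an olfactory receptor gene, read 4.23, 3.67 and 3.73 in NMF291-/- mice and 3.86, 3.42 and 4.11 in wild type, with overlapping genotypes.

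Among the PIAS ligases, Pias4, also called PIASy, showed the largest gene-level difference of the 6 genes. Pias4 read 10.03, 9.85 and 10.07 in NMF291-/- mice, against 8.90, 8.94 and 8.82 in wild type. The genotypes did not overlap, and the NMF291-/- array with the lowest value was still above the highest wild-type array. The difference was 1.10 ± 0.07 (SE, n = 3 mice each), or 2.14-fold. The genes that neighbour Pias4 in the RefSeq order did not pass the limma test: Zbtb7a differed by -0.05 (adjusted p = 0.614) and Eef2 by -0.01 (adjusted p = 0.896).

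Pias4 has 14 probe sets, and they did not move alike. They were sorted by the same contrast into those that rise, with no overlap and a difference of at least 0.5, and those that stay, with a difference under 0.25 in size. By this rule 10 rise, 1 stays and 3 lie between. At this difference or more and without overlap, 2.54% of all probe sets lay above wild type. The 10 rising probe sets differed by 0.54 to 1.51, with a median of 1.20, or 2.30-fold.

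The rising probe set with the largest difference, 4818618, read 10.50, 10.37 and 10.58 in NMF291-/- mice, against 8.91, 8.96 and 9.06 in wild type. Next came 4417949 with a difference of 1.41, 4781697 with 1.40, 4941518 with 1.38 and 5078163 with 1.27. The middle of the class held 4657641 with 1.13, 4865485 with 1.08 and 4843705 with 1.08. All of these separate the genotypes by more than the spread among mice of either genotype. Non-overlap is part of the rule for rising, so this separation is a description of the class. The smallest rises were 0.83 for 4692044 and 0.54 for 4837306, which read 9.40, 9.42 and 9.44 in NMF291-/- mice, against 8.98, 8.85 and 8.83 in wild type.

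The probe set that stays, 4398119, read 11.96, 12.04 and 11.98 in NMF291-/- mice, against 11.63, 11.79 and 11.90 in wild type, a difference of 0.22 ± 0.10 (SE). It met the rule for staying by its size, yet its genotypes did not overlap either. Its wild-type mean of 11.77 was above those of the 10 rising probe sets, at 8.10 to 9.92. The part of this higher signal in its smaller difference was not tested. Between the classes, 4498933 differed by 0.34 and 4746558 by 0.26, both without overlap. The third, 5086563, read 5.49, 6.09 and 5.45 in NMF291-/- mice, against 5.81, 6.23 and 6.13 in wild type, with overlap and at a low signal. The values just inside and outside the limit for rising were 0.54 and 0.34, and those at the limit for staying were 0.22 and 0.26.

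**Figure D2:**
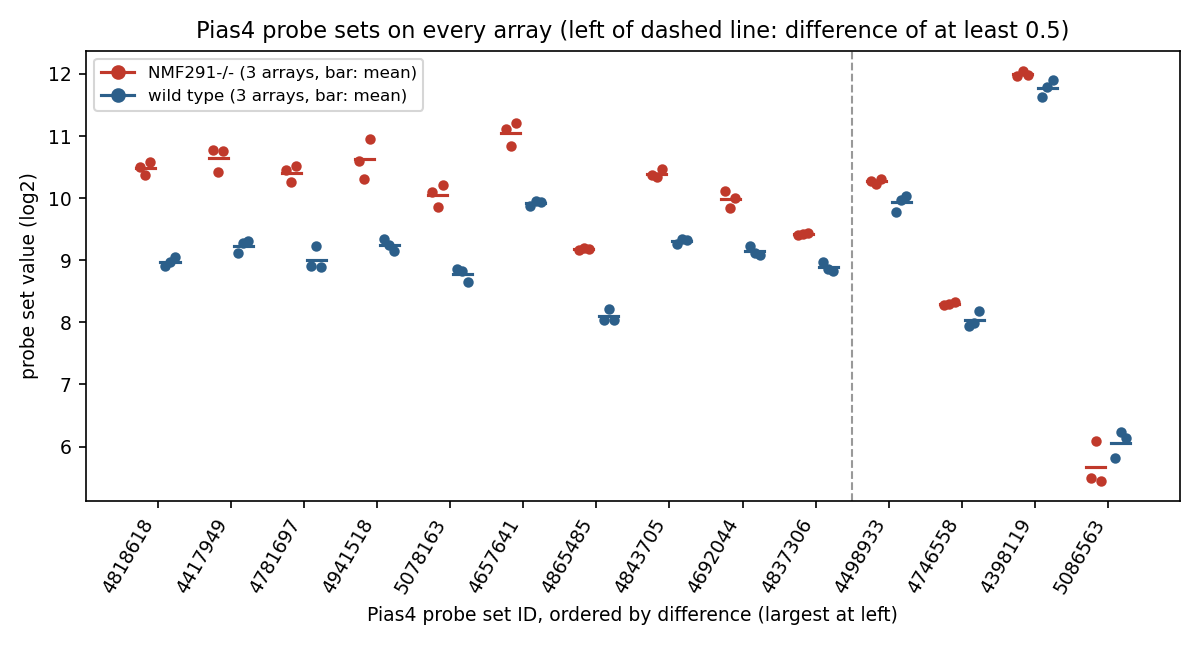
Values (log2) of the 14 Pias4 probe sets on each array, NMF291-/- in red left of wild type in blue, ordered by their difference, with bars at the means. The 10 probe sets left of the dashed line differ by 0.54 to 1.51, and only 5086563, at the right end, has overlapping genotypes.

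Set against the median of all 14 Pias4 probe sets on the same array, a quantity called the splicing index, 4398119 fell behind by 1.00, 4746558 by 0.96 and 4498933 by 0.88. The index differences of the 14 probe sets ran between -1.61, at the low-signal 5086563, and 0.29, at 4818618. The median itself rose by 1.22, as most of the 14 probe sets rise. The index differences therefore restate the probe set differences against that median and add no separate evidence. The RefSeq table lists 1 transcript for Pias4. Positions of the probe sets within the gene were not analysed here.

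By root mean square distance over the 6 gene-level arrays, after centring each row, the rows most like Pias4 were Tti2 (0.06), Imp4 (0.10), Ptbp1 (0.10), Mcm5 (0.11) and Oxa1l (0.11). Tti2, a subunit of the TTT complex that stabilises large DNA-damage and growth kinases, read 10.64, 10.59 and 10.67 in NMF291-/- mice, against 9.63, 9.70 and 9.55 in wild type. Ptbp1, a splicing repressor, differed by 0.96, and Imp4, a factor of ribosomal RNA processing, by 1.24. Mcm5, a subunit of the replicative helicase, differed by 0.96, and Oxa1l, an insertase of the mitochondrial inner membrane, by 0.90.

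Pias1, the founding member of the PIAS ligases, read 11.07, 11.16 and 11.09 in NMF291-/- mice, against 11.28, 11.23 and 11.18 in wild type. All 3 NMF291-/- arrays lay below the wild-type arrays, with a difference of -0.13 ± 0.05 (SE), and the row did not pass the threshold. Of its 16 probe sets, 15 had a negative difference and 5 lay wholly below wild type, beside 10.1% of all probe sets. Their differences ran between -0.33, at 4614634, and 0.04, at 4877442. The median difference of all probe sets was 0.02. Probe sets of a gene were read on the same 6 arrays, so counts of their signs, for Pias1 and other genes, are not independent.

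Pias2, also known as PIASx, is a coregulator of the androgen receptor. It overlapped at gene level, with 10.10, 10.15 and 10.11 in NMF291-/- mice, against 10.21, 10.18 and 10.09 in wild type. Its probe sets went both ways. Probe set 5244868 read 12.16, 12.13 and 12.11 in NMF291-/- mice, against 11.51, 11.63 and 11.43 in wild type, a difference of 0.61 ± 0.09 (SE).

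A second Pias2 probe set, 4691964, read 11.10, 11.10 and 11.01 in NMF291-/- mice, against 10.50, 10.52 and 10.40 in wild type, a difference of 0.60 ± 0.08 (SE). Both lay clear of wild type although the gene-level row did not. At the other end, 4429861 read 9.60, 9.55 and 9.47 in NMF291-/- mice, against 10.09, 9.90 and 10.07 in wild type, and did not pass the threshold. Of the 23 Pias2 probe sets, 4 lay wholly above wild type, beside 14% of all probe sets, and 7 wholly below, beside 10.1%. The RefSeq table lists 11 transcripts for Pias2. Of its neighbours in that table, St8sia5 passed the limma test with a difference of 0.29 (adjusted p = 0.0305) and Katnal2 did not, with 0.01 (adjusted p = 0.961).

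Pias3, a ligase that inhibits STAT3, read 9.04, 9.07 and 9.09 in NMF291-/- mice, against 8.74, 8.88 and 8.88 in wild type. The genotypes did not overlap, with a difference of 0.23 ± 0.05 (SE), and the row did not pass the threshold. It passed with a filter at the 25th percentile, with trend and robust eBayes settings and at an adjusted p under 0.1. Of its 20 probe sets, 18 had a positive difference and 11 lay wholly above wild type, beside 14% of all probe sets. The highest difference was 0.68, at 5222225, and the lowest was -0.21, at 4570595. Pias3 overlaps Nudt17 in the RefSeq table, and Nudt17 was not analysed here.

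The SENP proteases differed from each other. Senp1, a SUMO protease of the nucleus, read 9.37, 9.34 and 9.40 in NMF291-/- mice, against 9.07 on each of the 3 wild-type arrays. The genotypes did not overlap and the difference was 0.30 ± 0.04 (SE, n = 3 mice each), or 1.23-fold. With any 1 of the 6 arrays left out, the Senp1 difference was 0.29 to 0.32 and no longer passed the threshold. The whole gene-level table then had 76 to 496 rows called, against 1342 with all arrays. Pias4 passed in all 6 cases. Both genes were chosen from this comparison, so these calls are a description only. All 23 Senp1 probe sets had a positive difference, between 0.09 at 4558329 and 0.57 at 4998223, and 17 lay wholly above wild type, beside 14% of all probe sets. Senp1 overlaps Pfkm in the RefSeq table, whose row differed by -0.09 (adjusted p = 0.298).

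Senp2, a protease found at the nuclear pore, read 9.86, 9.85 and 9.86 in NMF291-/- mice, against 9.90, 9.90 and 9.86 in wild type. The genotypes overlapped, with a difference of -0.03 ± 0.04 (SE). Its 23 probe sets lay between -0.22, at 5104115, and 0.21, at 4591271, with a median of 0.00. Probe set 4591271 had a low signal, at 2.91 to 3.53 in NMF291-/- mice and 2.99 to 3.14 in wild type. Over all 7 genes, 12 of 124 probe sets passed the threshold, all of them higher, beside 0.603% of all probe sets called higher. Of the 12, 10 were those of Pias4 that rise and 2 were those of Pias2.

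**Figure D3:**
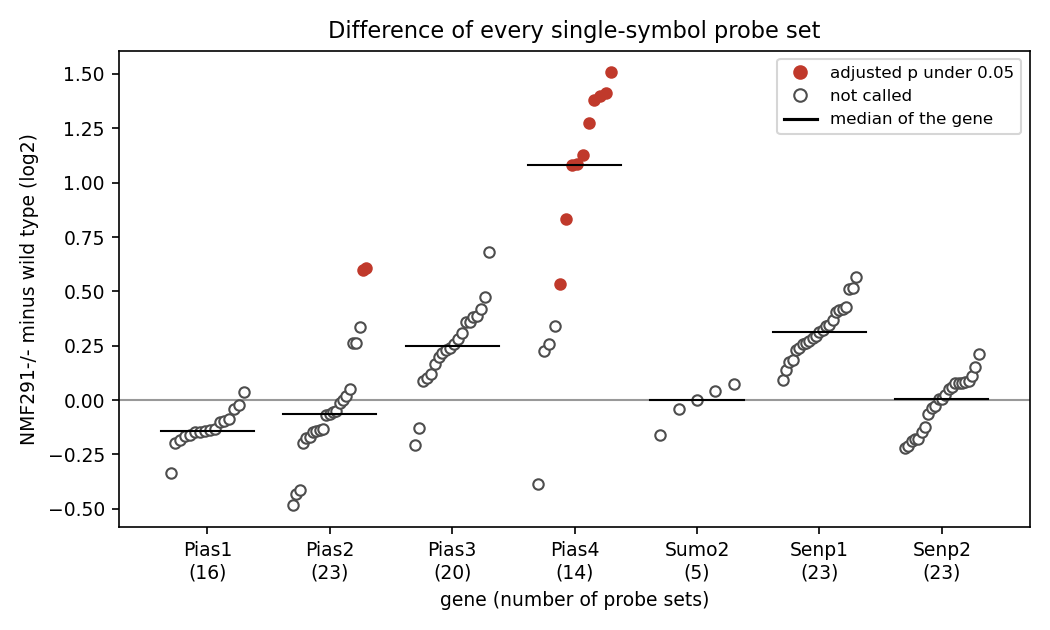
Difference of each of the 124 probe sets, NMF291-/- minus wild type (log2), by gene, with the number of probe sets in brackets and a line at each gene's median. Filled points passed an adjusted p under 0.05. Pias4 spans -0.38 to 1.51, and all 23 Senp1 points lie above 0.

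Promoter windows are shown for Senp1 and Senp2 because these related proteases differed in their response. They run 250 bases before to 50 bases after the start in RefSeq (GRCm38.p6), on the gene's strand. The Senp1 window lies at chr15:98093326-98093625 on the minus strand and is the one of its 2 windows with a motif match. The Senp2 window lies at chr16:22009234-22009533 on the plus strand. Capitals mark motif matches.
Senp1: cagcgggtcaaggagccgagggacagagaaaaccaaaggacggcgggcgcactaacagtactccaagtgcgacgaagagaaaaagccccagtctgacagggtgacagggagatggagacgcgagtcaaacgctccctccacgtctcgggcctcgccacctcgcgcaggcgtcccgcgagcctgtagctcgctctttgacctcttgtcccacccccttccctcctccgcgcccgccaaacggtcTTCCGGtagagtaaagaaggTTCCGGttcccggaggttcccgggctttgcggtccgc
Senp2: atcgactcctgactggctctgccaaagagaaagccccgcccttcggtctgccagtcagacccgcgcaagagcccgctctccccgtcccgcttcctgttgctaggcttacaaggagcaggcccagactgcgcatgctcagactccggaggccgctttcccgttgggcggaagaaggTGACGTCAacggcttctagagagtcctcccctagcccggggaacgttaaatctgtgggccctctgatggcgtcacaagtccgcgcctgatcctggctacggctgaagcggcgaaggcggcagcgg

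In all, 10 motifs were searched on both strands of the 10 windows found for 6 of the 8 genes, which leaves Pias2 and Pias4 unsearched, and the motifs were picked by hand with the results known. Overlapping matches of different motifs were each counted. The ETS core CCGGAA was found in Senp1, at positions 244 and 264 from the window's first base, and in Sumo3, beside 14.9% of all 32851 windows. The cyclic AMP response element TGACGTCA was found in Senp2, at position 176, beside 1.79% of windows. The SP1 site GGGGCGGGG was found in Pias1 and Sumo3, beside 11.4%. The CCAAT box was found in Pias3 and Sumo2, beside 37.4%, and the YY1 site in Pias1, beside 0.852%.

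The other 5 motifs had no match in these windows. They were the STAT palindrome TTCNNNGAA, held by 8.3% of all windows, the NRF1 site with 0.971%, and the E-box CACGTG with 7.15%. The others were the E2F sites TTTCGCGC and TTTGGCGC with 0.813% and the interferon response element with 3.44%. A match is a description of the letters and not a bound site.

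Other genes of the pathway came from 6 lists with 55 genes, of which 41 had a gene-level row. The lists were chosen with earlier results of these data known. Their counts, shares and p-values, here and below, are therefore a description and not an independent test of the pathway. By limma with adjustment over all rows, 4 were higher, beside 4.18% of rows with 1 symbol, and 3 were lower, beside 2.31%. The other 34 did not pass. The median difference of the 41 genes was 0.04. The 4 that rose were a SUMO protease, a SUMO ligase, a SUMO-targeted ubiquitin ligase and a STAT factor. The 3 that fell were all in the list of neuronal SUMO substrates. With any 1 array left out, between 0 and 3 of the 7 remained past the threshold. The whole gene-level table then had 76 to 496 rows called, against 1342 with all arrays.

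Uspl1, a SUMO protease of Cajal bodies, was the 1 of 6 other proteases that rose, beside 4.18% of rows with 1 symbol. It read 9.23, 9.20 and 9.19 in NMF291-/- mice, against 8.77, 8.69 and 8.64 in wild type, a difference of 0.51 ± 0.05 (SE, adjusted p = 0.0108). Senp7 differed by -0.17 (adjusted p = 0.115), Senp5 by 0.17 (adjusted p = 0.167) and Senp6 by 0.11 (adjusted p = 0.307).

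Trim28, a corepressor with SUMO ligase activity, was the 1 of 7 other ligases and relatives that rose, beside 4.18% of rows with 1 symbol. It read 10.51, 10.54 and 10.68 in NMF291-/- mice, against 10.17, 10.20 and 10.20 in wild type, a difference of 0.39 ± 0.06 (SE, adjusted p = 0.0256). Ranbp2, a ligase of the nuclear pore, differed by 0.26 (adjusted p = 0.0724), Zmiz2 by 0.20 (adjusted p = 0.0774) and Topors by 0.18 (adjusted p = 0.0826). Sae1, a subunit of the SUMO-activating enzyme and the 1 gene of its list with a row, differed by 0.18 (adjusted p = 0.0536).

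Rnf111, a ubiquitin ligase that recognises SUMO chains, was the 1 of 4 readers and SUMO-targeted ligases that rose, beside 4.18% of rows with 1 symbol. Its difference was 0.27 ± 0.04 (SE, adjusted p = 0.0221). Pml, the scaffold of nuclear bodies rich in SUMO, differed by 0.18 (adjusted p = 0.0855), Rangap1 by 0.14 (adjusted p = 0.118) and Daxx by 0.04 (adjusted p = 0.745). Stat6, the transcription factor of interleukin-4 signalling, was the 1 of 12 PIAS partners that rose, beside 4.18% of rows with 1 symbol. It read 8.21, 8.30 and 8.20 in NMF291-/- mice, against 7.74, 7.65 and 7.72 in wild type, a difference of 0.53 ± 0.05 (SE, adjusted p = 0.0103). Stat2 differed by 0.18 (adjusted p = 0.117), Mitf by -0.17 (adjusted p = 0.269) and Parp1 by 0.07 (adjusted p = 0.423).

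Of 11 neuronal SUMO substrates, 3 fell, beside 2.31% of rows with 1 symbol, and none rose by this test, beside 4.18%. Grik2, a kainate receptor subunit, read 11.16, 11.12 and 11.13 in NMF291-/- mice, against 11.58, 11.57 and 11.49 in wild type, a difference of -0.41 ± 0.04 (SE, adjusted p = 0.0127). Rims1, a scaffold of the presynaptic active zone, differed by -0.44 ± 0.06 (SE, adjusted p = 0.0201), and Arc, an activity-induced regulator of glutamate receptor uptake, by -0.32 ± 0.05 (SE, adjusted p = 0.0287). Syn1, a synaptic vesicle protein, differed by -0.23 (adjusted p = 0.0615).

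**Figure D4:**
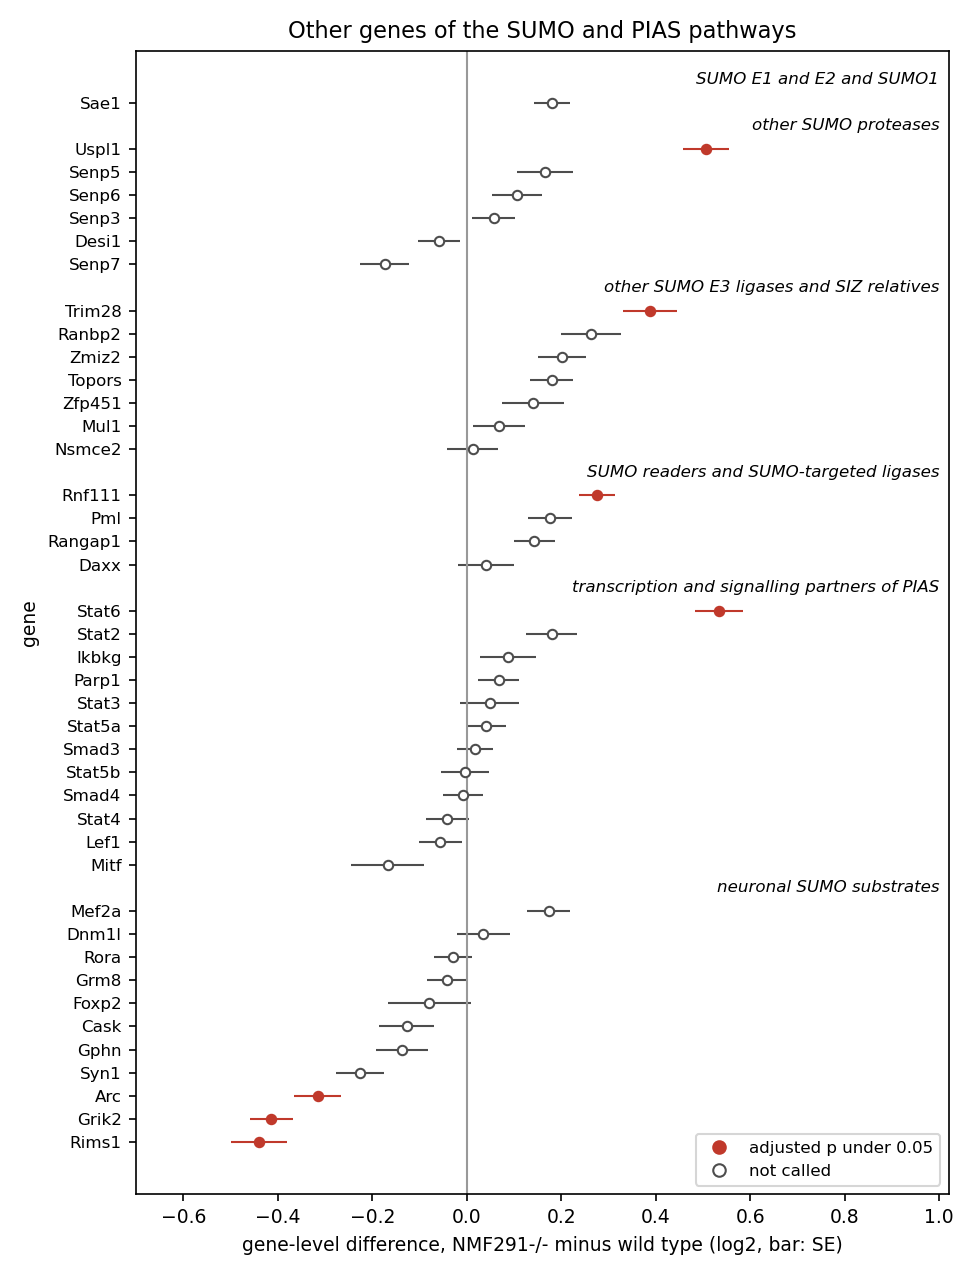
Gene-level differences, NMF291-/- minus wild type (log2, bars SE), of the 41 other pathway genes with a row, grouped by list. Filled points passed an adjusted p under 0.05, with 4 to the right of 0 and Grik2, Rims1 and Arc to the left.

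At exon level, 25 of 897 pathway probe sets passed the limma test, beside 1% of all probe sets. Of these, 13 were higher, beside 0.603%, and 12 lower, beside 0.402%. Stat6 had 5 of the higher ones and Uspl1 had 4, while Rims1 had 6 and Grik2 5 of the lower ones. The splicing index called none of the 897 by limma, and 88 (9.81%) had an unadjusted p under the threshold, beside 8.99% of all 207513 probe sets tested. Smaller changes of usage were mostly missed by this test on simulated arrays, so a count of 0 does not show that usage was equal.

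Some markers of other cells moved with genotype in the same arrays. The marker lists were chosen with earlier results of these data known. The microglia list is given in most detail because it moved with genotype, so its counts and shares are a description only. Of 14 microglia and macrophage markers, 11 rose and none fell, beside 4.18% of rows with 1 symbol called higher. The count was 10 without NMF291-/- mouse 2, 2 without NMF291-/- mouse 1 and 1 without wild-type mouse 1. It was 0 without NMF291-/- mouse 3, wild-type mouse 2 or wild-type mouse 3. With an array left out, 76 to 496 rows of the whole gene-level table were called, against 1342 with all arrays. All 14 markers lay wholly above wild type, beside 19.8% of rows with 1 symbol. List means were 8.72, 9.29 and 8.86 in NMF291-/- mice, against 7.97, 7.96 and 7.91 in wild type. Their summed linear signal was 7720 to 12337 in NMF291-/- mice and 3927 to 4144 in wild type, and no marker was at 0. Among the NMF291-/- mice the list was highest in mouse 2, in which Stat6 was also highest and Pias4 lowest. Of 8 granule neuron markers, 3 fell, beside 2.31% of rows with 1 symbol called lower. The other 5 did not pass and differed by -0.15, for Zic1, to 0.04, for Pax6. The summed linear signal of the 8 was 35804 to 37874 in NMF291-/- mice and 41595 to 43031 in wild type. Of 6 Bergmann glia and astrocyte markers, 1 rose, beside 4.18% of rows with 1 symbol called higher. This was Gfap, a marker of reactive astrocytes, with a difference of 1.48 ± 0.22 (SE, adjusted p = 0.0272). The median difference of the 6 was 0.01. No marker passed in the lists of Purkinje cells, oligodendrocytes, endothelial cells, brainstem neurons and choroid plexus. The mean of 6 choroid plexus markers was 9.41, 9.43 and 8.18 in NMF291-/- mice, against 9.62, 9.40 and 9.43 in wild type, so that NMF291-/- mouse 3 stood apart. Without that mouse the gene-level difference was 1.05 for Pias4 and 0.29 for Senp1. The part of these cells in the Stat6, Grik2, Rims1 and Arc differences, or in those of the PIAS and SENP genes, was not tested.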

How the data were processed

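Cerebellar RNA of 6 mice was measured on 6 exon arrays, 3 NMF291-/- and 3 wild type, grouped by the sample titles. The deposited values run between 2.32 and 14.5 and were read as log2 on that ground. The submitters' processing notes name mm8 as genome build. How the authors normalized and summarised probes is not given in the sources used here. No column was left unused.

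Probe names came from the platform annotation, updated through RefSeq GRCm38.p6. At gene level 14996 rows had 1 symbol, 1019 several and 7317 none. At exon level 209279 had 1, 4446 several and 15856 none. A pathway gene with several rows was represented by the one with the highest mean.

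Differences are mutant minus wild type, fitted without covariate or filter by limma 3.58.1 (R 4.3.3, lmFit and eBayes). P-values are two-sided and were adjusted by Benjamini-Hochberg within each whole table, with a threshold of 0.05. The splicing index is a probe set minus the median of its gene's probe sets on that array, for the 207513 probe sets of genes with at least 3. Non-overlap means every array of one genotype above every array of the other.

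The members, lists and tests were chosen with earlier results of these data known. Named were all members, all Pias4 probe sets, the highest, the lowest and the passing probe sets of the other members, up to 4 pathway genes per list by smallest p plus those that passed, and the 5 rows nearest to Pias4.

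The scripts were tested on simulated arrays. The gene-level test recovered most changes there. The index test recovered only large ones, and at first none. After that result was seen, the simulated spread was changed to the moderated one, a larger effect was added, and leaving out probe sets whose index has no spread was tried; it is kept as an alternative only. Also chosen after seeing the data were diffSplice, most of whose simulated calls were false, and level filters for the index. The mouse numbers were not used to pair the samples in the main fit. At gene level, same-numbered arrays' deviations correlated at -0.01, -0.04 and 0.03, and those with different numbers at -0.09 to 0.10. With 3 arrays per genotype, such correlations cannot settle whether the numbers pair mice. Promoters were read with Python 3.11.15 and figures drawn with matplotlib 3.10.9.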

Additional observations from a re-analysis of the deposited data

How the results depend on the processing

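Members called at gene level numbered 2, and 3 with a filter at the 25th percentile, with trend and robust eBayes, at an adjusted p under 0.1 or over transcript clusters only, and 1 with any array left out. Member probe sets called numbered 12, against 19 with a filter at the 25th percentile, 27 with trend and robust eBayes, 19 at an adjusted p under 0.1, and 0 with any array left out, when no probe set of the whole table was called. Pathway genes called numbered 7, against 12 with the filter, 12 with trend and robust eBayes, 14 at an adjusted p under 0.1, and 0 to 3 with an array left out. Leaving out NMF291-/- mouse 1 or 3 left 0, NMF291-/- mouse 2 or wild-type mouse 2 left Stat6, and wild-type mouse 1 or 3 left Stat6, Grik2 and Uspl1. Rows called in the whole gene-level table also dropped with an array left out, from 1342 to between 76 and 496. Pathway probe sets called numbered 25, against 82, 155 and 65 under the same 3 settings, and 0 with any array left out. Microglia markers called numbered 11, and 0 to 10 with an array left out: 2 without NMF291-/- mouse 1, 10 without NMF291-/- mouse 2, 0 without NMF291-/- mouse 3, 1 without wild-type mouse 1 and 0 without wild-type mouse 2 or 3. With the replicate number as a block, each of these counts was 0, as was that of the whole gene-level table. The adjusted p of the 7 pathway genes under the block was between 0.0898 and 0.109, and over all 12 alternatives between 0.00307 and 0.109.

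The splicing index was run under 18 settings for pathway probe sets, 14 planned and 4 added after seeing the data, and 17 of them called 0. The exception was diffSplice, with 10 calls beside 0.961% of all probe sets, a method most of whose calls were false on simulated arrays. Leaving out index values without spread, added after a failed simulation, also called 0 of 206077 probe sets. With level filters, 9 probe sets of the whole table were called with such values kept and 113 with them left out, none of them in pathway genes. Without wild-type mouse 3, no Pias4 probe set met the rule for staying. The gene-level difference of Pias4 was 1.05 to 1.16 with an array left out. Median centring lowered the differences of all 6 members by the same amount, because it shifts all rows of an array equally. That of Pias4 became 1.05, Senp1 0.25 against 0.30, and Pias3 0.18 against 0.23. Pias1 became -0.18 against -0.13, Pias2 -0.09 against -0.04 and Senp2 -0.08 against -0.03.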
